A study of Mus musculus with 6 samples.

Results

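The change between 48 and 96 hours without doxycycline (Dox) was read from 2 of the 6 libraries of the series, the iErk1; Erk KO mouse embryonic stem cell (ESC) line without Dox for 48 hours and the same line without Dox for 96 hours. Both libraries were chosen by their labels, with 1 library a time, so every difference below sets 1 library against 1 library and no p-value was computed. The series compared wild-type and Erk KO mouse ESCs by RNA sequencing, each with and without a Mek inhibitor. The labels give all 6 libraries the cell line KH2 and a C57BL/6 x 129 background. The wild-type KH2 cells were untreated or had PD0325901, a Mek inhibitor, for 48 hours. The iErk1; Erk KO cells were kept with Dox, were without Dox for 48 or 96 hours, or were without Dox for 96 hours with PD0325901 in the last 48 of them. The iErk1; Erk KO genotype was common to both libraries compared and to the Dox library, so none of these 3 is wild type. The name iErk1 is read here as an Erk1 transgene that Dox keeps on, in cells whose own Erk genes are deleted. The labels do not say whether the line is 1 clone, nor the doses of Dox and PD0325901.

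The Erk kinases are the last kinases of the Ras, Raf and Mek cascade, which in ESCs carries Fgf signals. Its targets include its own inhibitors, such as the Sprouty proteins and dual-specificity phosphatases, and it moves naive cells towards the formative state, so that loss of the signal usually lowers feedback genes and raises naive factors. Interferon-stimulated genes are a separate programme, switched on through Stat and Irf transcription factors, and ESCs are known for a weak interferon response. Hypoxia-induced genes are switched on by the Hif factors, which are degraded when oxygen is plentiful.

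The 6 libraries held between 9.05 and 9.95 times 1e6 uniquely mapped reads, 9.70 at 48 hours and 9.95 at 96 hours. Reads fell on 16308 genes at 48 hours and 16857 at 96 hours, against 16042 with Dox and 17403 in wild-type KH2. Levels are given as RPKM, the deposited reads per kilobase of gene and 1e6 reads. The RPKM of Mapk3, which encodes Erk1, was 56.4 in wild-type KH2, 14.8 with Dox, 6.86 at 48 hours and 6.75 at 96 hours. It was thus low in the Erk KO line and differed little between 48 and 96 hours, and reads of a transgene and of the remaining own gene are not separated in these files. Among the markers of embryonic stem cells, Pou5f1 had an RPKM of 630.1 at 48 hours and 600.4 at 96 hours, and Sox2 had 243 and 263. Of 30 fibroblast markers, 0 were without reads in either library, and their summed RPKM was 592.8 at 48 hours and 664.0 at 96 hours.

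A gene was called higher or lower when it met 4 limits. Its log2 ratio of RPKM plus 0.5 was at least 1 in size, its RPKM was at least 1 in the higher library, it had at least 20 reads over both libraries, and the exact 95% Clopper-Pearson interval of its ratio of reads left out 1. By these limits 588 of 11722 genes tested, or 5.02%, differed between 48 and 96 hours. Of them 533 were higher at 96 hours (4.55% of genes tested) and 55 were lower (0.469%). The median log2 ratio over all genes tested was 0.08. With TMM or median-of-ratios scaling in place of total reads, the log2 ratio of RPKM before the 0.5 is added dropped by 0.115 or 0.108, the median with the 0.5 is then at or under -0.02, and 423 or 427 genes were higher and 74 or 72 lower. By total reads the share of calls that were higher was 90.6%, and it was 85.1% with TMM. The first step, 48 hours against Dox, called 557 of 11386 genes tested (4.89%), 315 higher (2.77%) and 242 lower (2.13%). Over both steps, 96 hours against Dox, 1143 of 11804 genes tested (9.68%) were called, 899 higher (7.62%) and 244 lower (2.07%). Both steps share the 48-hour library, so a low or high count there moves both in opposite directions.

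**Figure D1:**
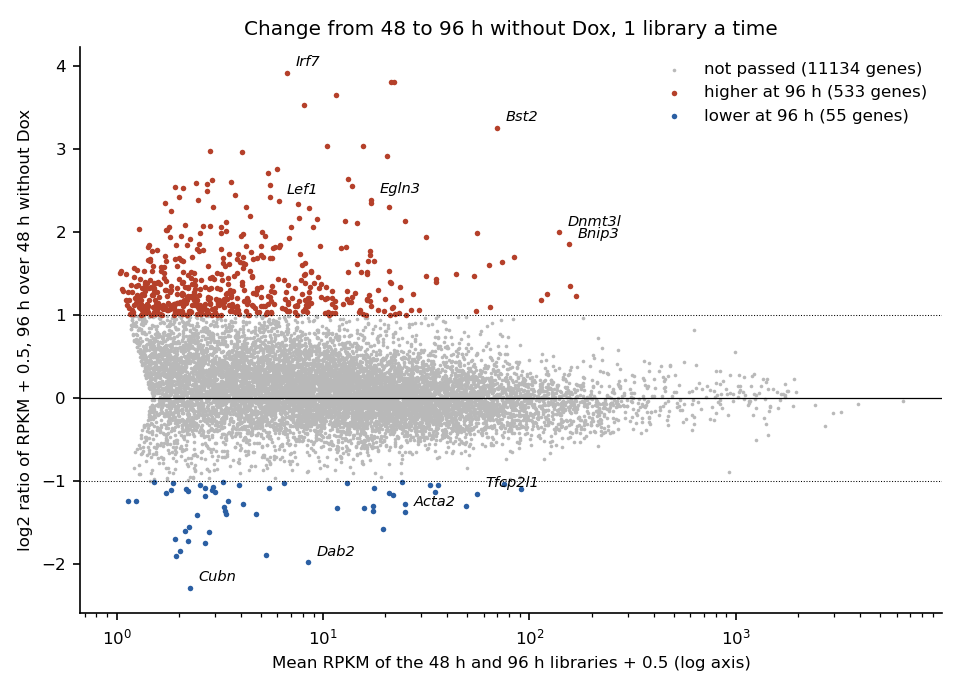
Each point is 1 of the 11722 genes tested. The x axis is the mean RPKM of the 48 and 96 hour libraries plus 0.5 on a log axis, and the y axis is the log2 ratio of RPKM plus 0.5, 96 over 48 hours. Red points are the 533 genes higher at 96 hours and blue points the 55 lower, and dotted lines mark a log2 ratio of 1 and -1. Most red points lie at low mean RPKM, with Irf7 highest at 3.92 and Cubn lowest at -2.28.

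Most late gains were moderate in size. Their median log2 ratio was 1.26, with 379 between 1 and 1.5, 98 between 1.5 and 2, and 56 at 2 or more. Late losses had a median of -1.23, and only 1 of the 55, Cubn, passed a size of 2. The 533 gains had a median RPKM of 1.34 with Dox, 1.19 at 48 hours, 4.06 at 96 hours and 3.70 at 96 hours with PD0325901, beside 3.98 in wild-type KH2. The 55 losses had medians of 4.19 with Dox, 4.37 at 48 hours, 1.57 at 96 hours and 2.09 at 96 hours with PD0325901, beside 4.64 in wild-type KH2. Over all genes tested the medians were 9.17, 9.18, 10.1 and 10.4, and 12.2 in wild-type KH2. Genes on either side of the limit lay close together. Slc2a8 was inside with a log2 ratio of 1.0018 and Rec8 outside with 0.9994, whereas Tfap2c was inside with -1.0057 and Erdr1 outside with -0.9737.

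Of the 533 gains, 448 (84.1%) were not called at the first step, genes not tested there included, 34 (6.38%) had already been higher at 48 hours than with Dox, and 51 (9.57%) had been lower at 48 hours and so turned back. Of the 55 losses, 45 (81.8%) had no first-step call and 9 (16.4%) had been higher at 48 hours. The other 1, Car4, had been lower at 48 hours and was lower again at 96 hours, from an RPKM of 6.86 with Dox to 3.13 and 1.22. Late gains without a first-step call had a median log2 ratio of -0.02 at that step.

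Gene lists chosen with earlier results of these data known are described by their counts, beside the background of 4.55% higher and 0.469% lower. Of the 533 gains 104 belonged to any of the 45 lists, and of the 55 losses 20. The background is of calls, and the share of all genes tested that belong to a list was not counted. The lists with most members higher were interferon-stimulated genes (20 of 26 tested), hypoxia-induced genes outside glycolysis (14 of 27), MHC class I and antigen processing (11 of 15), glycolysis and glycogen (7 of 27) and germline and meiosis (6 of 17). None of these 5 lists had a member lower. The lists with most members lower were neural genes (5 of 13 tested), primitive endoderm (3 of 18) and trophoblast (3 of 17). The trophoblast list had more members higher, 5, and a median log2 ratio of -0.05. Krt8 is counted as lower in both the primitive endoderm and the trophoblast list.

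**Figure D2:**
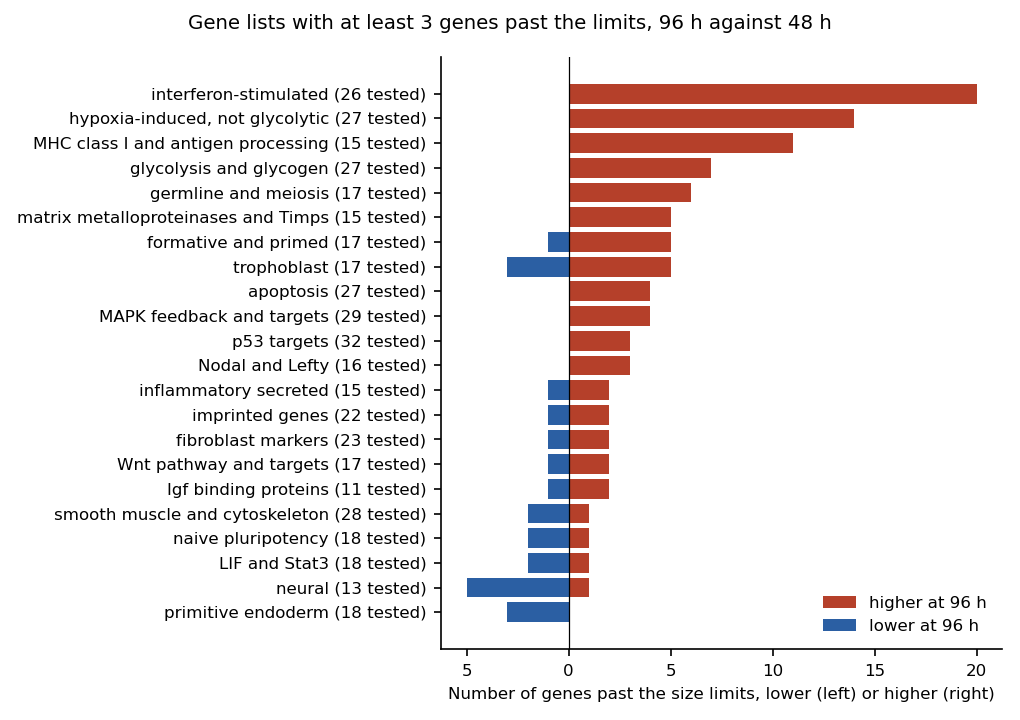
Bars give the number of genes of each list that were higher (red, right) or lower (blue, left) at 96 than at 48 hours, for lists with at least 3 such genes. The number tested stands after each list's name. Interferon-stimulated genes reach 20 to the right and neural genes 5 to the left.

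The promoters of these groups were read from RefSeq (GRCm38.p6), 300 bases from 250 before to 50 after each start site, on both strands. RefSeq promoters were at hand for 9400 of the genes tested, 12039 promoters in all. The interferon-stimulated response element, searched as GAAA, any 2 bases and GAAA, stood in 2.83% of these promoters and in 9.96% of the 542 promoters of late gains. Among interferon-stimulated genes that were higher, 12 of 18 promoters (66.7%) held it, and among MHC class I genes 3 of 11 (27.3%). The core of the hypoxia response element, ACGTG, stood in 25.9% of all promoters and in 23.2% of those of late gains. It stood in 8 of 11 promoters (72.7%) of the hypoxia-induced genes that were higher and in 6 of 10 (60.0%) of the glycolytic ones. Promoters were at hand for 16 of the 20 interferon-stimulated genes and 11 of the 14 hypoxia-induced genes that were higher. These 2 lists name genes by a known response, and list members not called were not counted. The shares thus cannot tell called members from the others. The Ets motif CCGGAAG stood in 17.9% of all promoters, 5.9% of those of late gains and 10.3% of the 58 promoters of late losses. A match is a description of the letters, and binding was not measured. The next 6 promoters show where the letters lie in genes described below, each as the 250 bases before the start site, 5′ to 3′ on the gene's strand, with matches in capitals.
Isg15, chr4:156200819-156201068, minus strand: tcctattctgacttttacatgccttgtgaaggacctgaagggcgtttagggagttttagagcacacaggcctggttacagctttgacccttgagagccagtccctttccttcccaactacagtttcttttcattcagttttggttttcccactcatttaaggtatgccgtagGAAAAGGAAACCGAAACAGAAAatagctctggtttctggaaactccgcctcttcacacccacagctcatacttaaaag
Ifit1, chr19:34640639-34640888, plus strand: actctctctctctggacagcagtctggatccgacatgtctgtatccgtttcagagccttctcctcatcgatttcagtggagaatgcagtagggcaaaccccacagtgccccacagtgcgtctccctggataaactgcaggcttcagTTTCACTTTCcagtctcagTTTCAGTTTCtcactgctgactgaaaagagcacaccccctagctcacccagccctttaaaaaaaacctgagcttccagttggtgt
Bst2, chr8:71537473-71537722, minus strand: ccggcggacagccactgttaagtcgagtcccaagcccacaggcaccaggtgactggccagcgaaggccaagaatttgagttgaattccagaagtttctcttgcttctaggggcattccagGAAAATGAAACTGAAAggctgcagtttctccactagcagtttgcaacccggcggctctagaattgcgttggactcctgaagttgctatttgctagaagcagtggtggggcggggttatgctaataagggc
Irgm1, chr11:48871421-48871670, minus strand: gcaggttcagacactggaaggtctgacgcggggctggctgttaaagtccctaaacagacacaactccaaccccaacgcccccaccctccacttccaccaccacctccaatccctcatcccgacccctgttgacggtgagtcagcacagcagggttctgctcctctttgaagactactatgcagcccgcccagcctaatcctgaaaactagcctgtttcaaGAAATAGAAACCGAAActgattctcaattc
Bnip3, chr7:138909507-138909756, minus strand: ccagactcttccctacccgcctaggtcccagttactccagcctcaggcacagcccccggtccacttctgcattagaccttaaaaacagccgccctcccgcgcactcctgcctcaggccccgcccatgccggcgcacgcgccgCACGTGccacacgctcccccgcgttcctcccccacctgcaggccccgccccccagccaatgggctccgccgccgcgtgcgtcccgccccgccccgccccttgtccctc
Egln3, chr12:54203875-54204124, minus strand: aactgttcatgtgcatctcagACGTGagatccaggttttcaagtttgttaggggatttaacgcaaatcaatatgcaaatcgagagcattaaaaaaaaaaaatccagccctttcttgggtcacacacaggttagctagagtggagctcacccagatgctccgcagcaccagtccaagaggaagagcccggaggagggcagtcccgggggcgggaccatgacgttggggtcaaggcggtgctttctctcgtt
In the first 4 promoters the capitals are the interferon element. Isg15 has 3 overlapping matches, Bst2 and Irgm1 have 2 overlapping ones each, and Ifit1 has 2 separate matches on the opposite strand. In Bnip3 the capitals are ACGTG read on both strands, which together also spell the E-box CACGTG, and Egln3 has 1 match. Irf7, Oasl2 and Parp12 had a RefSeq promoter without the interferon letters.

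The highest log2 ratios among genes with at least 100 reads were those of Irf7, Ifi27, Irgm1, Usp18, Oasl2, Bst2, Parp12 and Rtp4, all known as interferon-stimulated, of which 5 were on the list of interferon-stimulated genes. The list's median log2 ratio was 1.65 over the 26 tested, against 0.08 over all genes tested, and with TMM scaling 19 members were higher. At the first step 6 of 18 tested members had been higher and 1 lower, beside 2.77% and 2.13% of all genes tested. The members tested only at the late step reached the minimums through the 96-hour library. At 96 hours against Dox 22 were higher and 0 lower, beside 7.62% and 2.07%.

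Irf7, the factor that amplifies interferon production, had 3 reads with Dox, 6 at 48 hours and 225 at 96 hours. Its RPKM of 0.17, 0.33 and 12.1 gave a ratio of 36.5 between the last 2 libraries (95% interval 16.5 to 101, counting error only, as for all intervals here). The 96-hour library with PD0325901 was close to it at 12.7, and wild-type KH2 was at 1.88. Stat2, a transcription factor that carries the interferon signal into the nucleus, had an RPKM of 7.96 at 48 hours and 23.9 at 96 hours. Irf9, which binds DNA in a complex with Stat2, had 6.52 and 11.2 and did not meet the limits, with a log2 ratio of 0.73. Irf1 was higher, at 5.41 and 13.2. So 3 of these 4 factors were higher at 96 hours. At the first step 0 of the 4 had been called, but Irf7 was under the read and RPKM minimums there. It was therefore not tested at that step and could not have been called.

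Effectors covered a wide range of levels. Bst2, which tethers budding viruses at the cell surface, had an RPKM of 11.8 with Dox, 12.7 at 48 hours and 126 at 96 hours, 9.91-fold between the last ones (8.12 to 12.2). Its level in wild-type KH2 was 63.8, and at 96 hours with PD0325901 it was 134. The first 2 libraries of the course thus lay close together, and both 96-hour libraries lay above wild type. Ifi27 had 1.01, 2.45 and 40.8 in the same order, a ratio of 16.7 (11.2 to 26.1) for the late step. Irgm1, a GTPase that acts against intracellular pathogens, had 0.955, 2.36 and 39.6, a ratio of 16.8 (12.6 to 22.7), and Igtp, another member of that GTPase family, had 0.618, 1.05 and 9.98. Parp12, an ADP-ribosyltransferase, had 3.71, 2.88 and 27.4. These 5 genes are grouped here as late gains without a first-step call. Their timing follows from that choice, and the counts of the whole list are given above. Ifi27 and Irgm1 already lay higher at 48 hours than with Dox, just short of the limit of size.

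Other interferon genes already met the limits at 48 hours. Usp18, which removes Isg15 from proteins and dampens interferon signalling, had an RPKM of 0.0598 with Dox, 1.22 at 48 hours and 21 at 96 hours. Isg15, the ubiquitin-like modifier itself, had 0 reads with Dox and an RPKM of 3.54 at 48 hours and 23.2 at 96 hours, 6.56-fold for the late step (4.33 to 10.3). Rtp4 was also without reads with Dox, with 1.77 and 18.1 after. Each of these 3 passed both steps. Ifit1, which binds viral RNA, had 0.121, 1.09 and 8.99, and Ifit3 had 0.106, 1.24 and 8.85. The oligoadenylate synthetase Oas1a had 0.281, 3.27 and 9.2. Ifit, Oas1 and Gbp genes belong to families of similar copies, so their unique-read counts are uncertain. Ddx58, the RIG-I sensor of viral RNA, ran the other way first, with 11.5 with Dox, 5.004 at 48 hours and 23.3 at 96 hours. Ifitm1 was the one list member with a first-step gain and no late gain, with log2 ratios of 1.39 and then -0.51. The remaining tested members outside the limits were Ifitm2 (-0.20), Ifitm3 (0.46), Trim25 (0.57), Irf9 (0.73) and Ifit2 (0.90), given as late log2 ratios.

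MHC class I genes present peptides at the cell surface and are themselves targets of interferon. Their median late log2 ratio was 1.17 over the 15 tested. At the first step 9 members were tested and 0 called. Members tested only at the late step reached the read and RPKM minimums through the 96-hour library. The heavy chain H2-K1 had an RPKM of 5.86 with Dox, 6.54 at 48 hours, 34.3 at 96 hours and 39.6 at 96 hours with PD0325901, beside 37.2 in wild-type KH2. That was 5.24-fold for the late step (4.25 to 6.51). H2-D1 had 2.94, 4.21 and 20.2 over the course. Neither heavy chain was called at the first step, and H2-K1 then came near its wild-type level, with the caution that H2 genes are close copies of each other. Tap1, a subunit of the peptide transporter, had 0.943 at 48 hours and 4.5 at 96 hours, and Tapbp, which loads the peptide, had 9.93 and 23. Psmb9, a subunit of the immunoproteasome, had 1 read at 48 hours and 23 at 96 hours, a ratio of 22.4 with an interval from 3.64 to 924. B2m, the light chain, had 49.4 and 95.2 with a log2 ratio of 0.94 and did not meet the limits. Calr (0.07) and Pdia3 (0.12), general chaperones of the endoplasmic reticulum, stood near the median of all genes. With TMM scaling 9 members were higher, with a pseudocount of 1 there were 8, and with a minimum of 100 reads there were 6, without Psmb8 and Psmb9.

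**Figure D3:**
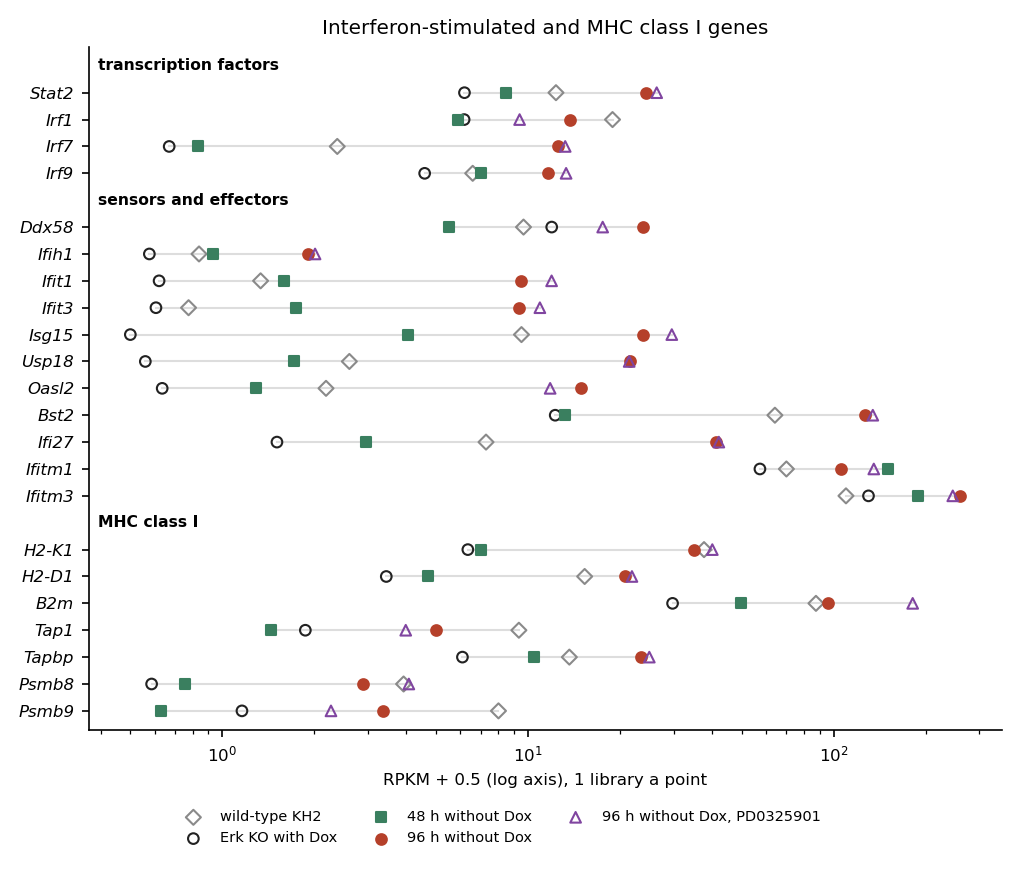
Each row is 1 gene and each point 1 library, at its RPKM plus 0.5 on a log axis. Filled green squares are 48 hours and filled red circles 96 hours without Dox, open circles the Dox library, open triangles 96 hours with PD0325901 and open diamonds wild-type KH2. Irf7, Bst2, H2-K1 and H2-D1 lie close together with Dox and at 48 hours and apart at 96 hours, and Ifitm1 lies highest at 48 hours.

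Hypoxia-induced genes outside glycolysis had a median late log2 ratio of 1.06, with 14 of 27 higher and 0 lower, and 13 higher with TMM scaling. At the first step 3 of 24 tested members had been higher and 1 lower, beside 2.77% and 2.13% of all genes tested. Egln3, a prolyl hydroxylase that marks Hif proteins for degradation and is itself Hif-induced, had an RPKM of 6.31 with Dox, 4.97 at 48 hours, 28.2 at 96 hours and 55.1 in wild-type KH2. The late ratio was 5.67 (4.7 to 6.88). Bnip3, which marks mitochondria for removal, had 31, 67 and 244 over the course and 279 in wild-type KH2, with a late ratio of 3.63 (3.4 to 3.88). These 2 differ in the first step, where Bnip3 was higher at 48 hours and Egln3 was not. Ndrg1, a stress-response gene, had 2.78, 12.4 and 49.4 and was higher at both steps. Adm, which encodes the vasodilator adrenomedullin, had 0.616, 0.522 and 3.56.

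Plod2, P4ha1, P4ha2 and Loxl2, enzymes that modify collagen, were 4 of the 14 genes of that list that were higher at 96 hours. Plod2, a lysyl hydroxylase, had an RPKM of 31.2 at 48 hours and 95.9 at 96 hours. P4ha1 and P4ha2, subunits of prolyl hydroxylases, had late log2 ratios of 1.06, a call lost with TMM and median-of-ratios scaling, and 1.27, and Loxl2, a crosslinking oxidase, had 1.49. Ero1a, which oxidises disulfides in the endoplasmic reticulum, had 35.4 and 112. Vegfa (0.72), Egln1 (0.71) and Higd1a (0.90) were outside the limits. Kdm3a, a histone demethylase on the list, had an RPKM of 48.1 with Dox, 104 at 48 hours and 74.5 at 96 hours, so that its only call was at the first step. Car9 had 1 read at 48 hours and 15 at 96 hours and was not tested. Outside the list, Ndufa4l2, a mitochondrial protein known as a Hif target, had 1.83, 4.29 and 35.8, 8.35-fold for the late step (6.03 to 11.8). It is named after its values were seen.

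Glycolysis and glycogen genes had a median of 0.56, with 7 of 27 higher and 0 lower under total-read and under TMM scaling. Pfkp, a phosphofructokinase, had an RPKM of 38.2 with Dox, 39.2 at 48 hours, 128 at 96 hours and 117 in wild-type KH2, a late ratio of 3.27 (3.09 to 3.47). Slc16a3, which exports lactate, had 16.6, 27.9 and 78.4. Aldoc and Pygl, an aldolase and the liver glycogen phosphorylase, had late log2 ratios of 1.52 and 2.12. The most abundant enzymes of the list did not meet the limits. Pgk1 had 453 and 798 RPKM at 48 and 96 hours, Ldha 801 and 1182, and Gapdh 408 and 365. Slc2a1, a glucose transporter, had 93.8 and 112 beside 484 in wild-type KH2. Pdk1, which keeps pyruvate out of mitochondria, had 44.6 with Dox, 12.9 at 48 hours and 33.4 at 96 hours, and is one of the genes that turned back. Hif1a itself had an RPKM of 41.1 at 48 hours and 28 at 96 hours, and Epas1, which encodes Hif2a, had 16.3 and 29.7. Neither met the limits, and both are named after their values were seen.

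**Figure D4:**
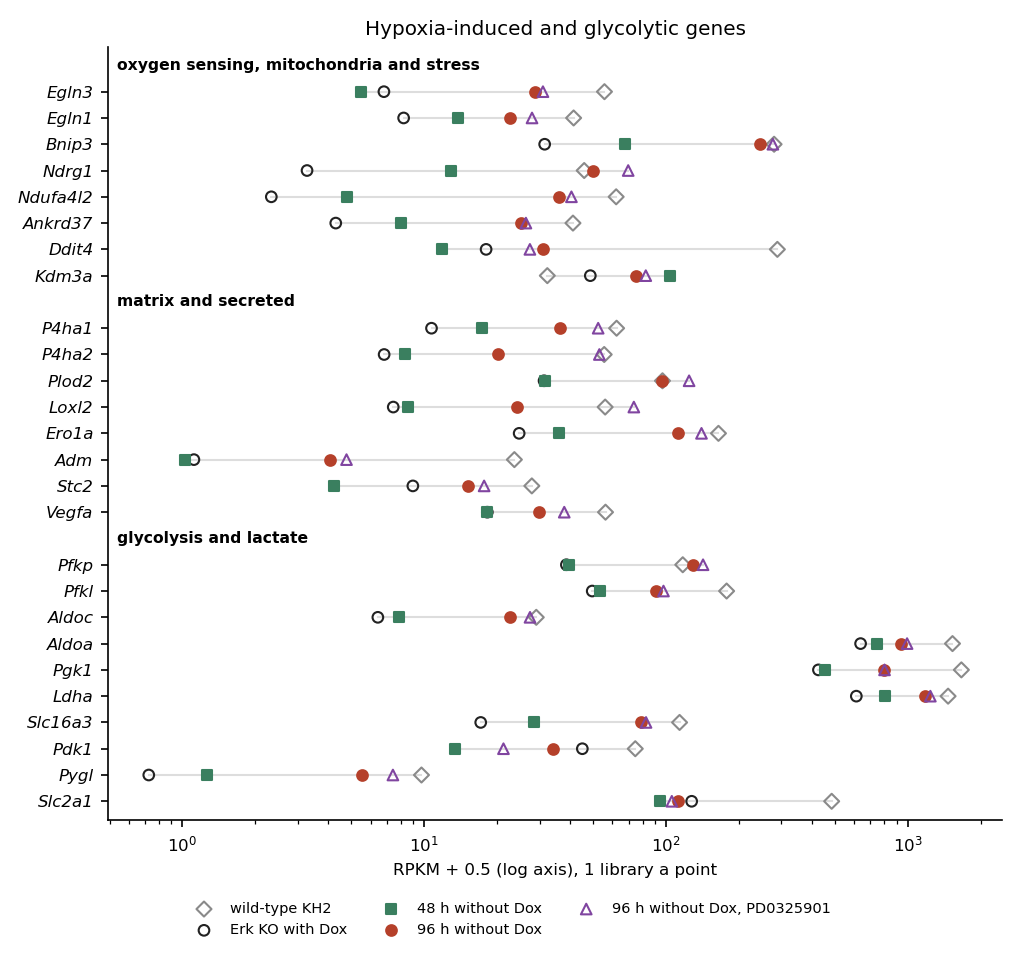
Rows are genes and points are single libraries at RPKM plus 0.5 on a log axis, with filled green squares for 48 hours, filled red circles for 96 hours, open circles for Dox, open triangles for 96 hours with PD0325901 and open diamonds for wild-type KH2. Egln3, Pfkp and Plod2 lie together with Dox and at 48 hours and higher at 96 hours, Kdm3a is highest at 48 hours, and Pdk1 and Stc2 are lowest there.

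The 51 genes lower at 48 hours than with Dox and higher again at 96 hours had a median RPKM of 5.8 with Dox, 1.5 at 48 hours and 5.19 at 96 hours. In wild-type KH2 their median was 9.17, and it was 3.93 there with PD0325901. At 96 hours with PD0325901 the median was 2.17. Against Dox, 43 of the 51 were within 2-fold at 96 hours and 8 were at least 2-fold lower, with log2 ratios from -2.45 for Egr1 to 0.99 for Ddx58 and a median of -0.24. With TMM scaling 37 genes met the rule.

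Erk feedback genes were part of this group. Spry4, a Sprouty inhibitor of receptor tyrosine kinase signalling, had an RPKM of 23.9 with Dox, 1.54 at 48 hours, 6.41 at 96 hours and 0.132 at 96 hours with PD0325901. The late ratio was 4.15 (3.19 to 5.48), after a first-step log2 ratio of -3.58. The 96-hour level thus lay between those at 48 hours and with Dox, and the inhibitor library lay under all 3. Etv4, an Ets factor induced by Fgf signals, had 8.14, 1.19, 4.26 and 0.914 in the same 4 libraries, a late ratio of 3.57 (2.32 to 5.69). Dusp6, the phosphatase that inactivates Erk, had 53.5, 6.45, 13.7 and 4.26, a late ratio of 2.13 (1.77 to 2.56), and it lost its late call with TMM and median-of-ratios scaling. In all 3 the level with PD0325901 was under that at 48 hours, though for Etv4 this rests on 21 against 27 reads.

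Most other members of the MAPK feedback and target list were not called at the late step. Of 29 tested members 11 had been lower at 48 hours and 3 higher, beside 2.13% and 2.77% of all genes tested. At the late step 4 were higher and 0 lower, or 2 higher with TMM scaling, with a median log2 ratio of 0.24. The fourth, Rasa4, a Ras GTPase activator, had not been lower at the first step, and it lost its call with TMM and median-of-ratios scaling. Spry2, another Sprouty gene, had 50.2 with Dox, 22.2 at 48 hours and 28.2 at 96 hours. Dusp4, a nuclear Erk phosphatase, had 12.8, 3.14 and 6.04, and Spred1, a Sprouty-related inhibitor, had 20.5, 5.4 and 8.86. These 3 had first-step losses and no late call. Dusp5 (-0.32) and Plaur (-0.01) had late log2 ratios at or under 0. In the MAPK cascade list, 0 of 24 tested members were called at the late step in either direction, and the one first-step call was Mapk3.

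Among immediate early genes, which respond to Erk within minutes, 2 of 21 tested were higher at the late step and 0 lower, and the list's median was -0.21. Egr1 had an RPKM of 45.7 with Dox, 2.11 at 48 hours, 7.95 at 96 hours and 12.2 at 96 hours with PD0325901, a late ratio of 3.76 (2.84 to 5.04). Unlike Spry4, Egr1 was not lower with the inhibitor, and its wild-type level was 168. Myc had 31.9, 5.84, 14.2 and 4.62, a late ratio of 2.42 (1.98 to 2.98). Fos had 35.8, 10.03 and 9.06 over the course, and Ier2 had 109, 48 and 42.3 and neither was called at the late step. Ccnd1, a cyclin often tied to Erk activity, had 46.5 and 44.1 at 48 and 96 hours.

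Several genes of the formative state and of development turned back too. Dnmt3l, a cofactor of de novo DNA methylation, had an RPKM of 132 with Dox, 55.1 at 48 hours, 221 at 96 hours and 149 at 96 hours with PD0325901. Its late ratio was 4.02 (3.74 to 4.31), which put the 96-hour level above that with Dox. Dnmt3a, the methyltransferase, had 33.1, 9.34, 20.01 and 8.92, and lost its late call with TMM and median-of-ratios scaling. Dnmt3b had 71.6, 40.9 and 51.4 and was outside the limits at both steps. Bmp4, a ligand of mesoderm and germ cell induction, had 14.4, 1.5, 5.19 and 0.918. Nefm, a neurofilament subunit, had 1.97, 0.349 and 2.04. Among the larger returns by size, Tex21 had 4.57, 1.06 and 4.51, and Ppm1j, a phosphatase, had 11.8, 1.9 and 6.14. Snai3 had 3 reads at 48 hours and 24 at 96 hours, so its ratio of 7.8 had an interval from 2.37 to 40.5. Mkrn1, a ubiquitin ligase named after its values were seen, had the highest level of the group with Dox, 306, then 100.2 and 236.

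The 9 genes that were higher at 48 hours and lower again at 96 hours had a median RPKM of 1.34 with Dox, 6.89 at 48 hours and 3.01 at 96 hours. At 96 hours 6 were within 2-fold of Dox and 3 were at least 2-fold higher. Spic, a transcription factor of naive ESCs, had 1.34 with Dox, 24.4 at 48 hours, 9.6 at 96 hours and 16.9 at 96 hours with PD0325901, so it stayed well above the Dox level. The ratio of 48 to 96 hours was 2.54 (2.05 to 3.17). Tubb3, a neuronal tubulin, had 17.5, 47.5 and 21.4, close to its start. Tfap2c, a factor of trophoblast and germ cells, had 14.6, 31.9 and 15.6, and lies just inside the limit. Neurog1, a neurogenic factor, had 0.124, 2.9 and 0.53, and Dkk1, a secreted Wnt inhibitor, had 0.899, 2.43 and 0.403. Ly6a, a surface antigen with similar copies, had 2.02, 6.89 and 3.01, but 26.7 at 96 hours with PD0325901. Pga5, a pepsinogen, had 0.976, 8.15 and 3.76, and Ap3b2, an adaptor subunit of neurons, had 1.89, 4.35 and 1.4. With a pseudocount of 1 only 3 genes turned back in this direction, and the late calls of Tfap2c, Ly6a and Pga5 were among those lost. With a minimum of 100 reads 5 did, and Neurog1, Dkk1 and Ly6a were not among them.

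**Figure D5:**
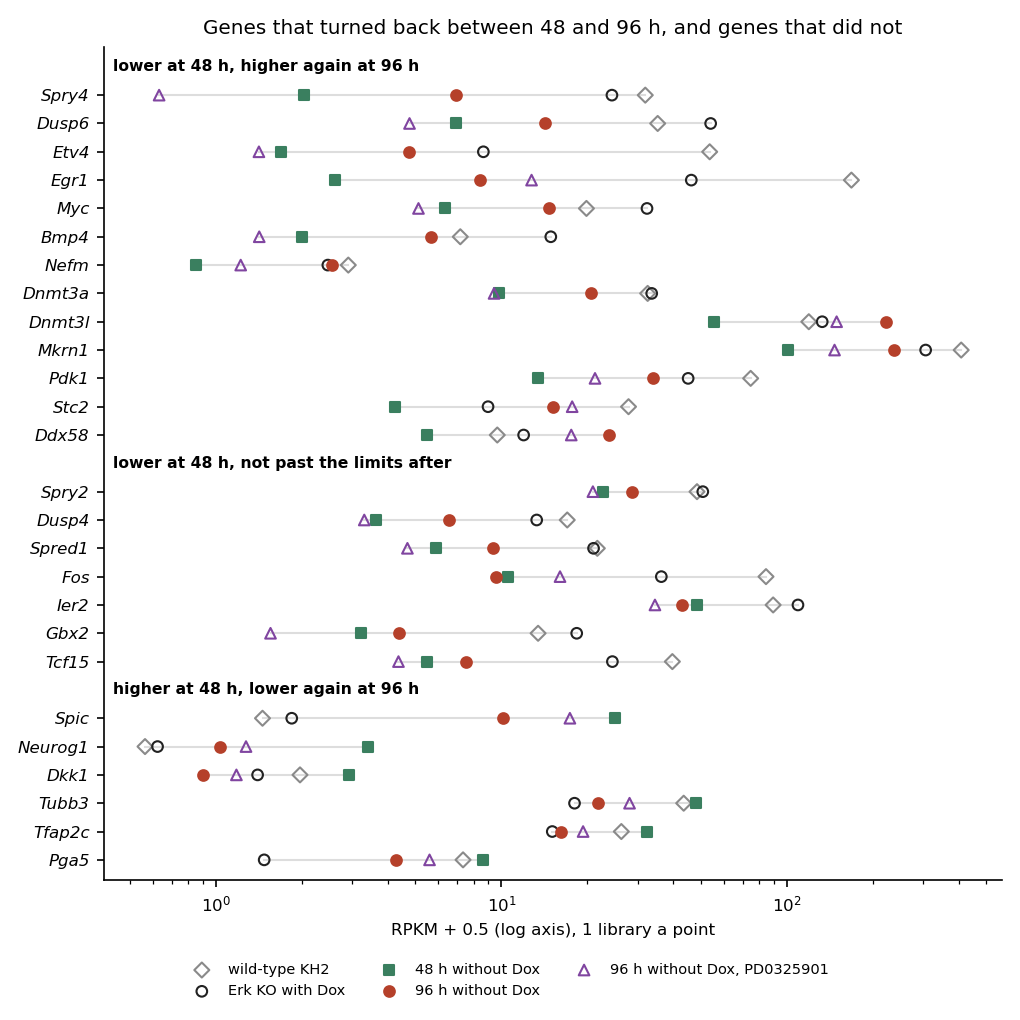
Rows are genes in 3 groups by their calls at the 2 steps, and points are single libraries at RPKM plus 0.5 on a log axis, with the same symbols for the 5 libraries as their legend gives. In the top group the 48-hour square lies left of the Dox circle and of the 96-hour circle in each row. In the middle group Fos and Ier2 have the 96-hour point left of the 48-hour point, and in the bottom group the 48-hour square lies farthest right in each row.

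The 34 genes higher at both steps had a median RPKM of 0.783 with Dox, 3.41 at 48 hours and 11.5 at 96 hours, and 2.73 in wild-type KH2. Besides the interferon and hypoxia genes above they included Lefty2, an inhibitor of Nodal signalling, with 23.4 with Dox, 71.7 at 48 hours and 172 at 96 hours. Skil (1.02), a Nodal and Tgf-beta feedback gene whose call was lost with TMM and median-of-ratios scaling, was higher at the late step in the same list, where 3 of 16 tested were higher and 0 lower, or 2 higher and 1 lower with TMM. A2m, a protease inhibitor named after its values were seen, had 7.1, 21.8 and 88.2. Mmp3, a stromelysin, had 1.2, 7.99 and 18.5, but 2.08 at 96 hours with PD0325901. Mmp13, a collagenase, had 0.675, 3.97, 8.79 and 2.17 in those 4 libraries, and its late call was lost with TMM and median-of-ratios scaling. Of 15 genes of matrix metalloproteinases and their Timp inhibitors tested 5 were higher at the late step, or 2 with TMM and 1 with a pseudocount of 1. Dazl, an RNA-binding protein of germ cells, had 1.55, 3.71 and 8.78.

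Late gains outside these programmes included members of the formative, germline and trophoblast lists. In the formative list 5 of 17 tested were higher and 1, Dkk1, lower, and with a minimum of 100 reads 4 were higher and 0 lower. Lef1, a Wnt effector, had an RPKM of 2.3 with Dox, 1.47 at 48 hours, 9.72 at 96 hours and 16.6 in wild-type KH2, a late ratio of 6.64 (4.95 to 9.06). Pou3f1, a factor of the formative epiblast, had 1.33 at 48 hours, 5.37 at 96 hours and 1.69 at 96 hours with PD0325901. Otx2, another such factor, had 11.1 with Dox, 23.6 at 48 hours and 47.3 at 96 hours, with a first-step gain and a late log2 ratio of 0.99 just outside the limit. Fgf5, the classic marker of that state, had an RPKM of 0.162 and 0.472 and was not tested. Germline genes with late gains included Smc1b, a meiotic cohesin, with 0.584 and 4.06, and Hormad1, a protein of meiotic chromosome axes, with 10.2 and 30.4. The germline list had 6 of 17 tested higher and 0 lower, with a median log2 ratio of 0.64, and 4 were higher with TMM and 3 with a pseudocount of 1. In the trophoblast list 5 were higher, among them Eomes (2.21 and 6.004), a factor of trophoblast and mesendoderm, and Krt19 (3.42 and 11.4), a simple keratin, and 3 were lower.

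Ace, Igfbp4 and Trim21 were among the other late gains. Ace, the angiotensin-converting enzyme, had 0.347, 0.42 and 6.67 over the course, 15.9-fold for the late step (10.1 to 26.4). Igfbp4, which binds insulin-like growth factors, had 6.47, 8.77 and 40.1. Trim21, an intracellular antibody receptor, had 0.306, 0.52 and 5.68. In the apoptosis list 4 of 27 were higher and 0 lower, with Pmaip1, the pro-apoptotic Noxa, at 35.3, 22.5 and 64.4, Casp6 (1.31), Bnip3, and Bok (1.07), which lost its call with TMM and median-of-ratios scaling.

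Late losses were few, and primitive endoderm and neural genes were among them. Cubn, an endocytic receptor of visceral endoderm, had an RPKM of 3.19 with Dox, 3.26 at 48 hours, 0.275 at 96 hours and 0.143 at 96 hours with PD0325901. The ratio of 48 to 96 hours was 11.9 (8.22 to 17.8). Dab2, the adaptor that works with that receptor, had 13.7, 13, 2.93 and 3.92 in the same libraries, a ratio of 4.43 (3.66 to 5.39). Both genes were flat at the first step and low in both 96-hour libraries. Krt8, a keratin of simple epithelia, had 23.5 at 48 hours and 10.8 at 96 hours. The list's median was -0.56, with 3 of 18 tested lower and 0 higher, and 4 lower with TMM. Gata6, the factor that specifies primitive endoderm, had 8.32, 2.58 and 1.2, a first-step loss without a late call. Lama1 (-0.95) and Srgn (-0.77) were outside the limits, and Col4a1 had a log2 ratio above 0 (0.74). In these bulk libraries, fewer cells of a type and less RNA per cell cannot be told apart.

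In the neural list 5 of 13 tested were lower and 1, Nefm, higher, with a median of -0.65. With a pseudocount of 1, 3 were lower, and Sox1 and Pax6 were not. With a minimum of 100 reads 3 were lower and 0 higher. Sox1, a factor of early neuroectoderm, had 4.19 with Dox, 3.6 at 48 hours and 1.37 at 96 hours, beside 0.409 in wild-type KH2. Pax6, another neural factor, had 3.31, 1.53 and 0.506, beside 0.97. Both were thus higher in the Dox library than in wild-type KH2, and at 96 hours Sox1 was still above it and Pax6 below it. Gap43, a growth-cone protein, had 15.6, 22.1 and 8.55. The defining genes Neurog2 and Dcx had at most 1 read in the 48 and 96 hour libraries.

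Naive pluripotency genes had a median late log2 ratio of -0.35, with 2 of 18 tested lower and 1 higher. Tfcp2l1, a naive factor downstream of LIF, had an RPKM of 52.2 with Dox, 76.4 at 48 hours, 34.2 at 96 hours and 45.7 at 96 hours with PD0325901, a ratio of 48 to 96 hours of 2.24 (2.14 to 2.33). Spic was the other loss. Sox15, a Sox factor of ESCs, was the gain, with 6.15 and 14.9. At the first step 6 of 18 tested members had been higher, beside 2.77% of all genes tested. Of these 6 only Spic was lower again at the late step by the limits. Nanog had 105, 398 and 296, and Dppa3, an oocyte and germ cell factor, had 8.45, 92.2 and 73.1. Prdm14, a repressor of DNA methylation genes in naive cells, had 4.79, 19.7 and 18.4. Esrrb had 107 and 70.5, Klf4 had 84.5 and 62.3, and Zfp42 had 388 and 394. In the list of LIF and Stat3 genes, Bcl3, a nuclear regulator of NF-kappaB, was lower as well (24.7 and 9.36).

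Igf2, Acta2, Tagln, Amot and Msc were among the other losses. Igf2, an imprinted growth factor, had 24.9 with Dox, 28.8 at 48 hours, 9.33 at 96 hours and 26.1 at 96 hours with PD0325901, a ratio of 48 to 96 hours of 3.09 (2.75 to 3.48). Acta2, smooth muscle actin, had 31.7, 35.6 and 13.4, but 84.2 with PD0325901. Tagln, another contractile protein, had 40.7, 44, 21 and 63.8. In the smooth muscle and cytoskeleton list these were the 2 of 28 tested that were lower, 1 was higher, Anxa2, a membrane-binding annexin (69.4 and 158), and the median log2 ratio was -0.15. Igf2, Acta2 and Tagln were low in the untreated 96-hour library and not in the treated one, and that library also had the higher summed RPKM of fibroblast markers, 1744 against 664.0. The part of fibroblast RNA in these levels was not tested. Amot, an adaptor of the Hippo pathway, had 4.63, 3.08, 0.85 and 0.861, and Msc, a helix-loop-helix repressor, had 4.27, 7.86, 1.75 and 2.13, so these were low in both 96-hour libraries. Gata2 (2.85 and 0.647), a blood and trophoblast factor, and Kctd15 (4.43 and 1.37) were lower too. Among abundant genes named after their values were seen, Fblim1, a focal adhesion protein, had 69.1 and 27.9, Mid1, a microtubule-associated ubiquitin ligase, 123 and 57.6, and Tdh, the threonine dehydrogenase of ESCs, 100.2 and 48.6.

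Several lists of general cell functions had few or 0 members called. In the DNA damage response and repair list 1 of 40 tested was higher, Rad50 (1.01), a subunit of the Mre11 complex, and it lost its call with TMM and median-of-ratios scaling. In the antioxidant and detoxification list 1 of 22 tested was higher, Gpx3 (1.20), a secreted glutathione peroxidase. The 6 lists given next had 0 members called in either direction. So had others, such as telomere maintenance (25 tested), lysosome and autophagy (26), and heat shock and chaperones (17). Ribosomal protein genes had a median log2 ratio of 0.07 over 42 tested, G1/S and DNA replication genes -0.01 over 34, G2/M genes -0.14 over 29 and genes of respiratory chain complexes I to III 0.09 over 29. Cholesterol synthesis genes had a median of 0.33 over 23, and CDK inhibitors -0.08 over 7. Cdkn1a, a p53-induced CDK inhibitor, had an RPKM of 38.6 at 48 hours and 51.6 at 96 hours, and Cdkn1b had 23.5 and 22.3. Of 32 p53 targets tested 3 were higher and 0 lower, and 2 of these 3, Gadd45a (1.01) and Ptprv (1.05), lost their calls with TMM and median-of-ratios scaling. Of 23 fibroblast markers tested 2 were higher, Dcn (4.54 and 12.6 RPKM) and Lox (10.3 and 22.9), and 1 was lower, Mgp (6.38 and 2.13), with a median log2 ratio of 0.32. Col1a1, the main fibrillar collagen, had 17.7 and 25.9. In the amino acid and endoplasmic reticulum stress list 2 of 31 were higher and 0 lower. Stc2, a secreted stanniocalcin, was one of them and had 8.48 with Dox, 3.74 at 48 hours and 14.6 at 96 hours. Saa3, an acute phase protein on the inflammatory list, had 2.6, 11.4, 24.4 and, with PD0325901 at 96 hours, 67.8, and its late call was lost with TMM and median-of-ratios scaling.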

How the data were processed

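Per the labels, the libraries were made from polyA RNA and read from a single end over 50 bases. The authors deposited, per the file headers, a count of uniquely mapped reads per gene, the RPKM made from it and the percent of each gene covered by reads. The submitters' processing notes name the build mm9. For the aligner and the gene models, no source used here gives a name. RPKM followed from reads, length and library total in every gene (checked). A gene without a row was set to 0 reads. Files were joined by gene ID over 18857 genes, 18805 of which took a symbol from RefSeq, and 41 genes differed in length between files. RefSeq promoters are of GRCm38.p6 and were not combined with mm9 positions.

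Libraries were scaled by total reads, and 1 library a group allows no test. Comparisons were 96 against 48 hours, 48 hours against Dox, and 96 hours against Dox, by the 4 limits given above, with a pseudocount of 0.5. A turned-back gene met the limits in opposite directions at both steps. Intervals cover counting error only, since 1 library a group gives no measure of the spread between cultures. Reads had no molecular identifiers. The depth of 9.05 to 9.95 times 1e6 reads sets the width of the intervals. A library with 0 reads allows up to 3.

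The members, lists and rules were chosen with earlier results of these data known. Genes were named by rule: the 8 highest and lowest log2 ratios with at least 100 reads, 8 turned-back genes each way, 6 late-only genes each way, up to 4 called members of each list (or 3 by reads), and fixed genes of Erk signalling and pluripotency. Most other names are further list members that this rule did not give, called (such as P4ha1, Sox1 and Pax6) or not. The rest include genes at the edge of the limits and genes marked as named after their values were seen. The alternatives were other scalings (edgeR 4.0.16 TMM factors, median of ratios, totals without the 10 most abundant genes), pseudocounts, read filters, fold limits and a stricter interval. The counting script was tested on simulated data. Python 3.11.15, pandas 2.3.3, scipy 1.17.1 and R 4.3.3 were used. The deposited percent of length covered was not used. A few genes of the lists are not reported here by name.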

Additional observations from a re-analysis of the deposited data

How the results depend on the processing

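By total reads 533 genes were higher, 55 lower, 51 turned back upwards and 9 turned back downwards. TMM scaling gave 423, 74, 37 and 13 in that order, and median-of-ratios scaling 427, 72, 38 and 13. With a pseudocount of 0.1 the counts were 736, 89, 91 and 20, and with a pseudocount of 1 they were 314, 35, 24 and 3. A minimum of 100 reads left 312, 30, 29 and 5. A 1.5-fold limit gave 1425, 273, 220 and 59, and a 3-fold limit 131, 10, 3 and 1. Without minimum RPKM or reads they were 629, 60, 62 and 10, and with the stricter interval 473, 47, 40 and 9. Of 98 called genes that the naming rule gave, 85 kept their call under TMM and under median-of-ratios scaling and 79 with a pseudocount of 1. No paired analysis was possible because each group has 1 library, and for the same reason no library could be left out. At this depth 1 read on a gene of 2 kb is 0.0515 RPKM at 48 hours and 0.0502 at 96 hours, so ratios of genes under about 1 RPKM rest on few reads.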
